A study of Mus musculus with 6 samples.

Results

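Pulmonary surfactant lowers surface tension at the air-liquid interface of the alveolus, and alveolar type 2 cells make, store and secrete it. The data on 10 mouse genes of this system, Sftpa1, Sftpb, Sftpc, Sftpd, Abca3, Lamp3, Napsa, Slc34a2, Etv5 and Lpcat1, are described here in bulk lung RNA. The genes were taken by symbol from a table of 56262 genes, as known surfactant and type 2 cell genes and not by a threshold on their values, and each matched 1 gene identifier. All 10 had enough counts to be tested, as did 17120 genes of the table.

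The lungs of 3 R/R mice and of 3 of their WT littermates were compared, all aged 8 weeks and without treatment. R/R mice were homozygous for the RBM47 K329R;K332R knock-in, made by CRISPR/Cas editing on the C57BL/6 background, so the change in the RNA-binding protein RBM47 was carried by all cells of the mouse and not by the epithelium alone. Whole lung tissue was measured, and the question was how the unstimulated R/R lung differs from the WT lung. Each lung had from 16501092 to 18141067 read pairs on genes, and the authors did not normalize these counts. The counts do not read the substitutions, and the level of Rbm47 itself was 33.4 CPM (counts scaled to the same library total in each lung) in R/R and 31.2 CPM in WT lungs, a log2 difference of 0.10 that did not pass the test (edgeR quasi-likelihood test, adjusted p = 0.660). The sources call the samples biological replicates, and each p-value measures the spread between these 6 lungs.

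In the type 2 cell, surfactant phospholipids and the hydrophobic proteins SP-B and SP-C are packed into lamellar bodies, which are lysosome-related organelles, and released by exocytosis. The hydrophilic proteins SP-A and SP-D are collectins that bind microbes. Spent surfactant is taken back up by type 2 cells or degraded by alveolar macrophages. Several of these genes are not particular to the type 2 cell: club cells also make SP-A, SP-B and SP-D, and Etv5 and Lpcat1 are transcribed in other tissues. In bulk samples, fewer cells of a type and less RNA per cell cannot be told apart.

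The 10 genes held between 2.04% and 2.73% of all read pairs of a lung. In R/R lungs the share was 2.73%, 2.61% and 2.62%, and in WT lungs it was 2.04%, 2.25% and 2.54%. All 3 R/R lungs lay above the 3 WT lungs, but WT replicate 3 was nearer to the R/R lungs than to the other WT lungs. The Wilson 95% interval of a single lung was narrow, for example 2.03% to 2.05% in WT replicate 1, and covers counting error only. The mean share was 2.65% ± 0.065 (SD, n = 3) in R/R and 2.28% ± 0.253 (SD, n = 3) in WT lungs, a difference of 0.374 percentage points. Without WT replicate 1, the lung with the lowest share, the difference was 0.255 percentage points.

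Levels of different genes were compared only per length, as TPM (transcripts scaled to a fixed total per lung) computed from the counts and the exon length of each gene. Sftpc, which encodes SP-C, had a mean of 39635 TPM over the 6 lungs (range 33789 to 43871) and was the gene with the 2nd highest level in the table. Sftpb followed at 7258 TPM (6336 to 8056), and Sftpa1 at 3521 TPM (2919 to 4004). Slc34a2 had 1679 TPM (1472 to 1845) and Sftpd 739.8 TPM (622 to 810.04). These 5 genes did not overlap with their neighbours in the order over the 6 lungs. Lamp3 at 467 TPM (422 to 507) and Lpcat1 at 461 TPM (404 to 497) overlapped each other. Napsa, at 320.1 TPM, ranged from 278 to 375 TPM and overlapped with no neighbour in this order. Etv5 at 225 TPM (189 to 249.9) and Abca3 at 222 TPM (203 to 236) could not be separated.

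**Figure D1:**
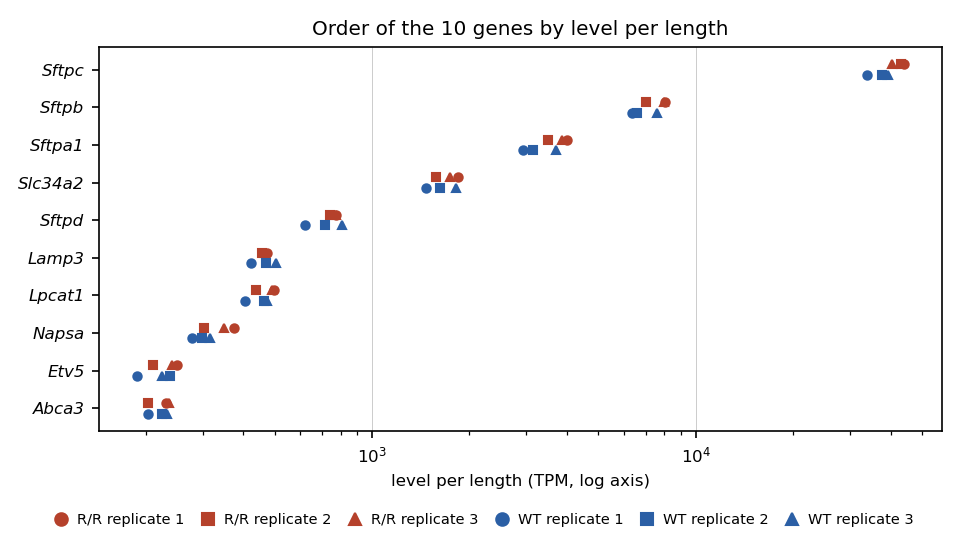
Level per length in TPM (log axis) of each of the 10 genes in the 6 lungs, with R/R lungs in red, WT lungs in blue and 1 symbol per replicate number. The genes span from Sftpc, at 33789 to 43871 TPM, to Abca3, at 203 to 236 TPM, and only Lamp3 with Lpcat1 and Etv5 with Abca3 overlap their neighbours.

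The promoter of 3 members is shown, because the lung factors NKX2-1 and FOXA1 or FOXA2 are known to act on surfactant genes. Windows came from RefSeq on GRCm38.p6 and were cut to the 250 bases before the RefSeq start, from which positions are counted. For Sftpa1 and Lamp3 this start lies inside the gene coordinates given further below, so the window ends within them. RefSeq windows were matched for 7 of the 10 members, as 8 windows since Etv5 had a pair, and not for Sftpc, Sftpd and Napsa. Capitals mark matches, on either strand, to TCAAG (the NKX2-1 core), TGTTTNC (a FOXA motif) or TATAAA (the TATA box). Sftpb (chr6:72304360-72304609, + strand), Sftpa1 (chr14:41131538-41131787, + strand) and Lamp3 (chr16:19706366-19706615, - strand) read as follows.
Sftpb: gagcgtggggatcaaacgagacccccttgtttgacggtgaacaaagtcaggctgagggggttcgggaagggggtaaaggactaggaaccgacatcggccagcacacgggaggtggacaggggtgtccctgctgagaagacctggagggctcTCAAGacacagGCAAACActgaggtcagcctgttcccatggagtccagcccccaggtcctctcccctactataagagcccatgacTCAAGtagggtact
Sftpa1: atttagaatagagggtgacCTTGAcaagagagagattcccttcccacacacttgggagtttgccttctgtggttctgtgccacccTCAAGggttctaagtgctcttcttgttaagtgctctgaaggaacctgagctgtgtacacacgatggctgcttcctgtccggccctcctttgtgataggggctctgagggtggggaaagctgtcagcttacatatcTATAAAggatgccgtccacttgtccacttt
Lamp3: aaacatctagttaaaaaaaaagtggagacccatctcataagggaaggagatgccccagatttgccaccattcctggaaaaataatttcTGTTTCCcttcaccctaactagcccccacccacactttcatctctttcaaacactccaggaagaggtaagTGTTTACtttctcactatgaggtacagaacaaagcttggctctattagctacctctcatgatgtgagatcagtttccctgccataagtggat

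TCAAG was found in 2 of the 8 member windows, those of Sftpb and Sftpa1, and in 35.9% of the 32851 windows of the same length in the table. In the Sftpb window it stood at bases -99 to -95 and -14 to -10 from the start, with a FOXA match at -88 to -82. TGTTTNC was in 3 of 8 windows, Sftpb, Lamp3 and Etv5, and in 17.8% of all windows. TTGCNNAA, a C/EBP motif, was in 1 window (Slc34a2, at -48 to -41) and in 9.56% of all. CGGAAG, an ETS motif, was in none of the 8 and in 13.6% of all. TATAAA was in 1 window, that of Sftpa1 at -30 to -25, and in 12.4% of all. No match overlapped that of another motif. A match in these letters is a description of the window and does not show binding.

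None of the 10 genes passed the test between R/R and WT lungs (edgeR quasi-likelihood test, adjusted p under 0.05 over 17120 genes), where 1.75% of all genes tested passed in either direction and 0.648% were higher in R/R. All 10 had a higher fitted level in R/R lungs, and the median of their log2 differences was 0.15, whereas 51.2% of all genes had a difference above 0 and their median was 0.0045. At an unadjusted p under 0.05, 4 of the 10 were higher (Sftpa1, Sftpb, Sftpc and Napsa), against 6.54% of all genes, or 14.2% in either direction. Sftpc was the single member whose 3 R/R values all lay above the 3 WT values, a pattern seen in 9.17% of genes. DESeq2 called 1 of the 10 (Sftpc, adjusted p = 0.0355, with a range of 0.00353 to 0.657 over the alternatives), and edgeR's exact test and limma-voom called none. The 10 genes are measured in the same 6 lungs and were seen to vary together across them, so 10 differences of one sign are not 10 separate observations.

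SP-B and SP-C, encoded by Sftpb and Sftpc, are the hydrophobic proteins that spread the lipid film, and SP-B is needed for breathing at birth. Sftpc (chr14:70520949-70524081, ENSMUSG00000022097.4) had 13496, 13789.7 and 12428 CPM in R/R replicates 1, 2 and 3. It had 10010.4, 11175 and 12159.5 CPM in the WT replicates. The genotypes did not overlap, but WT replicate 3 lay just under R/R replicate 3. Its level was 13238 ± 717 CPM in R/R and 11115 ± 1076 CPM in WT lungs (mean ± SD, n = 3), a log2 difference of 0.25 (SE 0.10, 95% interval 0.03 to 0.47, adjusted p = 0.271). An exact two-sided permutation test gave p = 0.1, the smallest that 3 lungs against 3 allow.

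Sftpb (chr6:72304610-72314371, ENSMUSG00000056370.15) had 4717, 4275 and 4669.8 CPM in R/R lungs. Its WT values were 3573, 3734 and 4480.2 CPM. WT replicate 3 was above R/R replicate 2, so the genotypes overlapped. The log2 difference was 0.21 (SE 0.10, 95% interval 0.0013 to 0.42, adjusted p = 0.349).

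The collectins differed between each other in how far the genotypes overlapped. Sftpa1 (chr14:41131782-41136452, ENSMUSG00000021789.14), for SP-A, had 3407, 3102 and 3297 CPM in R/R and 2392, 2577 and 3175 CPM in WT lungs. WT replicate 3 was again inside the R/R range. Its log2 difference of 0.27 (SE 0.10, 95% interval 0.04 to 0.49, adjusted p = 0.251) was the largest of the 10. Sftpd (chr14:41172214-41185149, ENSMUSG00000021795.10), for SP-D, had 557, 554 and 557 CPM in R/R lungs, with an SD of 1.79 CPM. In WT lungs it had 431, 498 and 588 CPM, with an SD of 78.9 CPM, so the WT range enclosed all R/R values. For Sftpd the log2 difference was 0.14 (95% interval -0.07 to 0.34, adjusted p = 0.569).

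**Figure D2:**
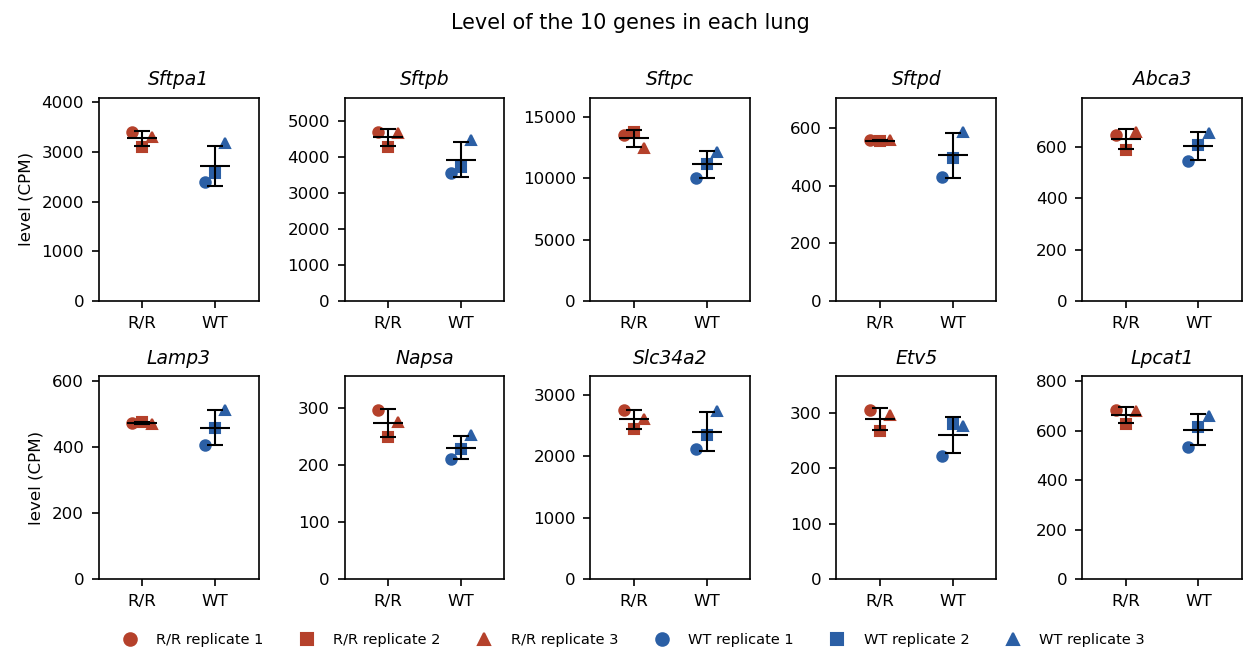
Level in CPM of each of the 10 genes in the 3 R/R lungs (red) and the 3 WT lungs (blue), with 1 symbol per replicate number and black bars for the mean and SD (n = 3), each axis starting at 0. WT replicate 1 (blue circle) is the lowest lung for all 10 genes, and only for Sftpc are the 3 R/R lungs all above the 3 WT lungs.

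Napsa (chr7:44572380-44586862, ENSMUSG00000002204.9) encodes napsin A, an aspartic protease that takes part in the maturation of pro-SP-B. It had 297, 249 and 277 CPM in R/R lungs and 212, 229 and 253 CPM in WT lungs. Only R/R replicate 2 and WT replicate 3 crossed. The log2 difference was 0.25 (SE 0.08, 95% interval 0.07 to 0.42), and its unadjusted p of 0.00997 was the lowest of the 10 (adjusted p = 0.172). On the opposite strand, Gm15396 shares 502 bases with the exons of Napsa (18.9% of them). Counting did not use strand, so pairs there cannot be told apart. Gm15396 was given 15 read pairs over the 6 lungs, a number that does not measure the pairs on the shared bases.

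Abca3 and Lamp3, both of lamellar bodies, had the smallest log2 differences of the 10 genes. Abca3 (chr17:24351950-24410201, ENSMUSG00000024130.16), the transporter that moves phospholipid into lamellar bodies, had 646, 589 and 661 CPM in R/R lungs and 547, 607 and 656 CPM in WT lungs. Its log2 difference was 0.07 (SE 0.08, 95% interval -0.10 to 0.24, adjusted p = 0.770). D330041H03Rik on the opposite strand shares 914 bases with Abca3 exons (9.75%) and was given 686 pairs over the 6 lungs. That number likewise does not measure the pairs on the shared bases. Lamp3 (chr16:19653378-19706375, ENSMUSG00000041247.8), a membrane protein of lamellar bodies known as DC-LAMP, had 473, 475 and 467 CPM in R/R lungs. Its WT values of 406, 455 and 511 CPM enclosed these. Its difference was 0.05 on the log2 scale (95% interval -0.13 to 0.22, adjusted p = 0.861). The intervals of Abca3 and Lamp3 leave room for a difference of up to 1.18-fold and 1.16-fold higher in R/R lungs.

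Lpcat1 (chr13:73467197-73516422, ENSMUSG00000021608.15) encodes an acyltransferase that makes the disaturated phosphatidylcholine of surfactant. It had 685, 627 and 679 CPM in R/R lungs and 536, 617 and 660.4 CPM in WT lungs. The log2 difference was 0.14 (95% interval -0.04 to 0.31, adjusted p = 0.497). Slc34a2 (chr5:53038081-53071664, ENSMUSG00000029188.14), a sodium-phosphate cotransporter of the apical membrane, had 2752, 2449 and 2601 CPM in R/R and 2115, 2338 and 2736 CPM in WT lungs. WT replicate 3 stood above all but R/R replicate 1. R/R minus WT was 0.12 on the log2 scale (95% interval -0.09 to 0.33, adjusted p = 0.654). Etv5 (chr16:22381309-22439719, ENSMUSG00000013089.15) encodes an ETS transcription factor that maintains type 2 cell identity. It had 305, 267 and 296 CPM in R/R lungs and 222, 279.8 and 277 CPM in WT lungs. The log2 difference was 0.16 (95% interval -0.04 to 0.35, adjusted p = 0.472).

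The 10 genes went up and down together from lung to lung. WT replicate 1 was the lowest lung for all 10. R/R replicate 1 was the highest for 6, WT replicate 3 for 2 (Sftpd and Lamp3), and R/R replicates 2 and 3 for 1 each. As deviations from each gene's own mean in log2 CPM, averaged over the 10 genes, R/R replicates 1, 2 and 3 stood at 0.14, 0.02 and 0.10. WT replicates 1, 2 and 3 stood at -0.25, -0.08 and 0.08. WT replicate 3 was thus above its own mean for 10 of 10 genes, like R/R replicates 1 and 3, and R/R replicate 2 for 5 of 10. The coefficient of variation of CPM was larger in WT lungs for all 10 genes, at 8.94% to 15.6% in WT and 0.322% to 8.75% in R/R lungs, although for Napsa the SD itself was larger in R/R lungs (24.0 against 20.7 CPM).

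**Figure D3:**
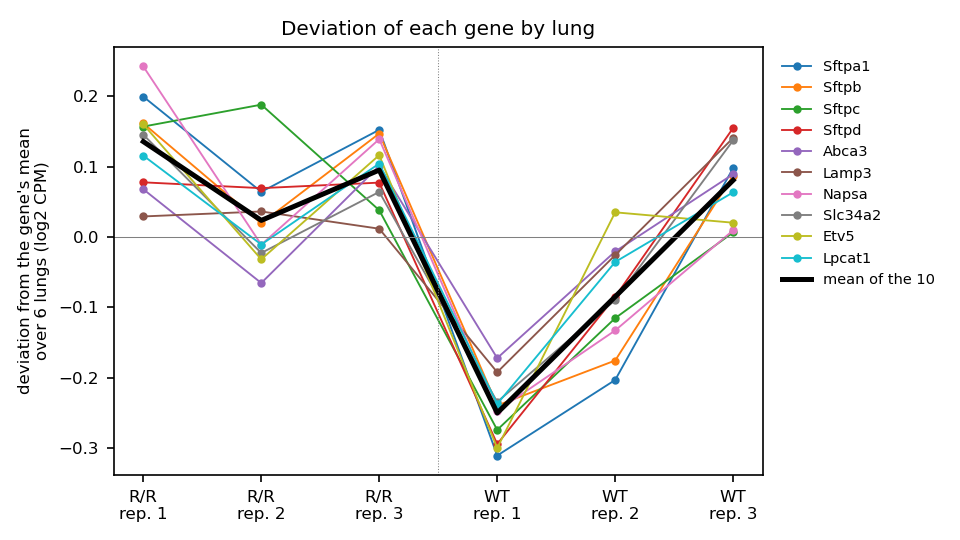
Deviation of each gene's log2 CPM from its mean over the 6 lungs, by lung, with 1 coloured line per gene and the mean of the 10 in black; lines join lungs only to guide the eye. The mean runs from -0.25 in WT replicate 1 to 0.14 in R/R replicate 1, and WT replicate 3, at 0.08, lies among the R/R lungs.

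Leaving out 1 lung changed what the comparison gave. Without WT replicate 1, none of the 10 genes had an unadjusted p under 0.05, and the log2 differences of Abca3 (-0.0016) and Lamp3 (-0.04) fell below 0. Without WT replicate 3, 7 of the 10 had an unadjusted p under 0.05 and Sftpa1 passed the test (log2 difference 0.39, adjusted p = 0.0183, with 0.00168 to 0.638 over all alternatives). Without R/R replicate 1, none reached that p, without WT replicate 2 only 1 did, and without R/R replicate 2 or 3 it was 3. Calls over all genes moved too, from 1.75% to 0.372% without WT replicate 1 and 3.56% without WT replicate 3, and genes higher at an unadjusted p under 0.05 from 6.54% to 4.33% and 8.04%.

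The read pairs of the 10 genes were divided among them as follows. Sftpc took 47.7% to 52.3% of these pairs, Sftpb 16.2% to 18.0%, Sftpa1 11.4% to 12.7% and Slc34a2 9.28% to 10.7%. Sftpa1, Sftpb, Sftpc, Sftpd, Napsa, Etv5 and Lpcat1 overlapped between the genotypes in this share. Abca3 had 2.36%, 2.23% and 2.55% in R/R lungs and 2.68%, 2.70% and 2.57% in WT lungs. Lamp3 had 1.73%, 1.80% and 1.80% in R/R lungs and 1.98%, 2.02% and 2.005% in WT lungs. Slc34a2 had 10.1%, 9.28% and 10.03% in R/R lungs and 10.3%, 10.4% and 10.7% in WT lungs. These 3 genes thus took a lower share of the pairs in each R/R lung than in any WT lung. The shares of the 10 genes sum to the whole, so each depends on the others. On the library scale these 3 genes overlapped between the genotypes, with log2 differences of 0.07, 0.05 and 0.12. On that scale all R/R lungs were below all WT lungs in none of the 10, and in 1627 of 17120 genes tested.

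Markers of other cells also moved between the lungs. Of 12 pan-epithelial markers (such as Epcam, Cdh1 and Krt8), 10 had a log2 difference above 0 with a median of 0.16, and their summed level was 1247 to 1328 CPM in R/R and 1086 to 1275 CPM in WT lungs. One of them passed the test, Spint1, a protease inhibitor of epithelial membranes (log2 difference 0.37, adjusted p = 0.0248). For 10 alveolar type 1 markers the median was 0.01, 6 were above 0, and the sums overlapped, at 6785 to 7564 CPM in R/R and 7046 to 7392 CPM in WT lungs. Aqp5, the water channel of type 1 cells, was the type 1 marker that passed (0.27, adjusted p = 0.0459). Club cell markers summed to 12589 to 16689 CPM in R/R and 10536 to 15641 CPM in WT lungs, and ciliated cell markers to 415 to 485 and 399 to 551 CPM. Neither list had a gene that passed. Scgb1a1 made up most of the club cell sum, and its 13307 CPM in WT replicate 3 lay within the R/R range. In that lung Scgb3a1 had 33.3 CPM and Muc5b 23.5 CPM. In the other lungs these 2 genes had 1.37 to 5.16 and 0.555 to 4.06 CPM. The part of airway cells in the levels of the 10 genes was not tested.

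Expressed relative to the summed pan-epithelial markers of the same lung, the differences of the 10 genes centred on 0. The median log2 difference was -0.0084, with 4 genes above and 6 below 0 and a range of -0.11 (Lamp3) to 0.11 (Sftpa1). All 10 overlapped between the genotypes on this scale, and the smallest p of an exact two-sided permutation test was 0.2. Leaving out 1 lung moved the median between -0.06 (without WT replicate 1) and 0.05 (without R/R replicate 2). Relative to the type 1 markers, by contrast, the median was 0.14, all 10 were above 0 (range 0.04 to 0.26), and Sftpc did not overlap (exact permutation p = 0.1). Krt8, Krt18 and the other pan-epithelial markers are also expressed in type 2 cells, so the first scale is not independent of their number.

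**Figure D4:**
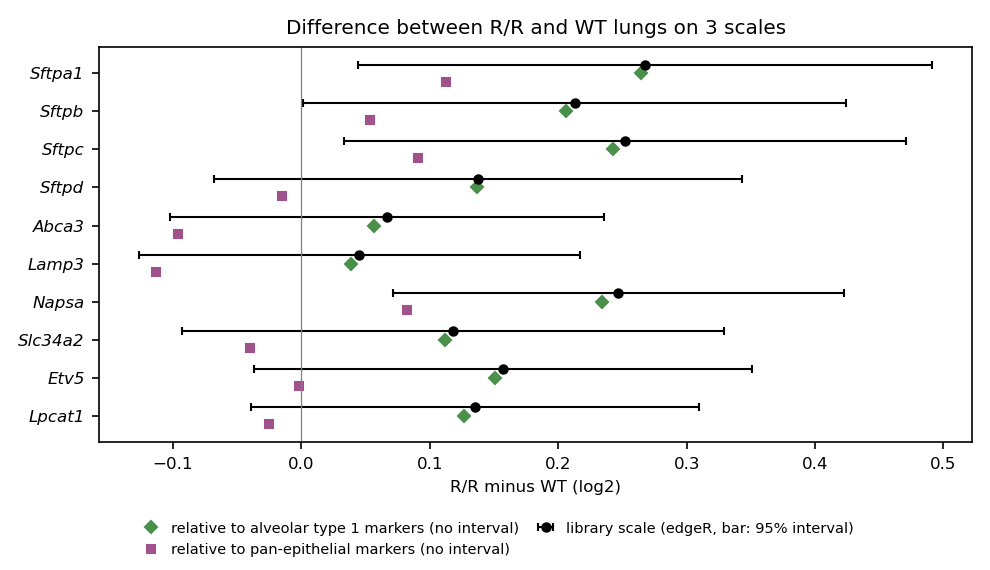
Difference between R/R and WT lungs (log2, R/R minus WT) of each gene on the scale of the whole library (black, with 95% intervals from edgeR), relative to alveolar type 1 markers (green) and relative to pan-epithelial markers (purple). Differences on the first and second scale are all above 0, with medians of 0.15 and 0.14, whereas those on the third lie on both sides of it, with a median of -0.0084.

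Outside the epithelium, 8 alveolar macrophage markers summed to 853 to 965 CPM in R/R and 591 to 763 CPM in WT lungs, without overlap. Without Chil3, their most abundant gene, the sums were 300.4, 270.6 and 278 CPM in R/R and 260.2, 251 and 275 CPM in WT lungs and overlapped, an alternative chosen after the data were seen. Car4 made up 129 to 158 CPM of these 7-gene sums and was at -0.10 (adjusted p = 0.533). Of the 8 markers, 6 had a difference above 0 (median 0.30), and Chil3, a chitinase-like protein, passed the test (625 ± 41.2 against 389.9 ± 85.5 CPM, log2 difference 0.68, adjusted p = 0.0233). In 4 of the 8 (Chil3, Siglecf, Ear2 and Krt79) all R/R lungs were above all WT lungs, against 9.17% of all genes tested. DESeq2 and the exact test called Chil3, Ear2 and Krt79, and limma-voom called Chil3 alone. Fibroblast and smooth muscle markers summed to 3545 to 3606 CPM in R/R and 4154 to 4359 CPM in WT lungs. None of these 8 genes passed (edgeR quasi-likelihood test, 3 at an unadjusted p under 0.05, 2 called by DESeq2, 2 by the exact test and 1 by limma-voom), and in 2 of them all R/R lungs were below all WT lungs. Of all genes tested, 14.2% had an unadjusted p under 0.05 in either direction. In 1627 of the 17120, all R/R lungs were below all WT lungs. Red cell markers summed to 1175 to 2219 and 2425 to 3219.9 CPM, with 6 of 6 below 0. Hba-a1, a haemoglobin chain, was the red cell gene that passed (-0.78, adjusted p = 0.0478). Limma-voom called Hba-a1 alone, and the exact test called it with Hbb-bs and Slc4a1. DESeq2 called Slc4a1 and not Hba-a1. Endothelial markers summed to 4989.6 to 5156 and 4956 to 5640.2 CPM. Leukocyte markers summed to 579 to 642 and 636 to 733 CPM, with 8 of 10 below 0 and 2 above (median -0.31). The B cell genes Cd79a (-0.67, adjusted p = 0.0491) and Ms4a1 (-0.99, adjusted p = 0.00675) fell. Itgax was higher, with all R/R lungs above all WT lungs (0.37, adjusted p = 0.0770). DESeq2 and the exact test called Itgax, Cd79a and Ms4a1 among others, and limma-voom called Ms4a1 only. All 6 cardiac muscle markers were below 0 (median -1.20), with sums of 61.7 to 119.6 and 84.4 to 259 CPM, the highest in WT replicate 2. No gene of these marker lists was at 0 in all 6 lungs. The part of these differences in the levels of the 10 genes was not tested.

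The wider surfactant system was read from 7 lists of 108 tested genes, of which 4 passed the test as higher in R/R lungs and 1 as lower. Of all genes tested, 0.648% passed as higher and 1.75% in either direction. Each list is given by its counts and median, beside 0.0045 and 51.2% above 0 for all genes, of which 14.2% had an unadjusted p under 0.05 in either direction. Of 14 genes for processing and secretion, 8 were above 0, the median was 0.07 and none passed (edgeR quasi-likelihood test, with 3 at an unadjusted p under 0.05). The 3 with the lowest p were Cd63, a membrane protein of late endosomes and lamellar bodies (0.30, adjusted p = 0.0909), Ctsh, a protease of SP-B and SP-C maturation (0.31, adjusted p = 0.0970), and Hps4, a subunit in the biogenesis of lysosome-related organelles (-0.24, adjusted p = 0.267). Cd63 had 124, 121 and 123 CPM in R/R and 89.3, 95.2 and 114 CPM in WT lungs. Ctsh had 248, 213 and 217 CPM in R/R and 169.8, 173 and 205 CPM in WT lungs. Both were without overlap and missed the threshold in this fit. DESeq2 and edgeR's exact test called both, with an adjusted p of 0.0281 and 0.0266 for Cd63 (0.000857 to 0.314 over its alternatives) and 0.0193 and 0.0272 for Ctsh (0.000279 to 0.336), and limma-voom called no gene of this list.

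Of 22 lipid synthesis genes, 17 were above 0 with a median of 0.07, and none passed (edgeR quasi-likelihood test, 5 at an unadjusted p under 0.05). Prdx6, whose phospholipase activity turns over surfactant lipid, had 774, 829 and 706 CPM in R/R lungs. Its WT values were 642, 553 and 627 CPM, below all R/R values (0.34, adjusted p = 0.0573). Prdx6 passed with DESeq2 (0.00137), the exact test (0.00436), plain library size (0.0486) and upper-quartile factors (0.0483), and its adjusted p ran from 1.66e-05 to 0.22 over the alternatives. Insig1, which holds back lipid synthesis by retaining SREBP in the endoplasmic reticulum, stood at 0.33 (adjusted p = 0.143), and Lpin1, a phosphatidate phosphatase, at 0.26 (adjusted p = 0.238). Insig1 passed with DESeq2 (adjusted p = 0.0468) and the replicate block (0.0386), with a range of 0.000183 to 0.431, and limma-voom called no gene of this list. Fasn, fatty acid synthase, was at 0.06 (adjusted p = 0.856), and Scd1, the stearoyl-CoA desaturase, at -0.07 (adjusted p = 0.915).

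Of 20 other type 2 markers, 15 were above 0 with a median of 0.07, and none passed with the quasi-likelihood test (3 at an unadjusted p under 0.05), DESeq2, the exact test or limma-voom. The lowest p belonged to Dram1, a lysosomal membrane protein (0.19, adjusted p = 0.263), Fgfr2, a growth factor receptor (0.19, adjusted p = 0.330), and Acoxl, an acyl-CoA oxidase-like protein (0.24, adjusted p = 0.333). The summed level of this list overlapped, at 5039 to 5248 CPM in R/R and 4309 to 5669 CPM in WT lungs. WT replicate 3 was the highest of the 6 lungs.

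Of 13 transcription factors of the distal lung epithelium, 11 were above 0 with a median of 0.10, and 1 passed. Cebpd, a C/EBP factor also present in many other cells, had 70.9, 133 and 94.2 CPM in R/R and 60.1, 57.6 and 59.9 CPM in WT lungs. All R/R values were above the WT values, but they spread widely (log2 difference 0.75, SE 0.17, adjusted p = 0.0486). Nkx2-1, the master regulator of lung epithelium, stood at 0.13 (adjusted p = 0.400). Cebpa was at 0.13 (adjusted p = 0.451) and Foxa2 at -0.02 (adjusted p = 0.938).

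The list of the transitional state, which type 2 cells pass through on the way to type 1 cells after injury, held 11 genes. Of these 8 were below 0 (median -0.07) and 2 rose. Lgals3, galectin-3, which macrophages also make in quantity, had 119.8, 99.2 and 104 CPM in R/R and 71.4, 69.8 and 91.7 CPM in WT lungs (0.47, SE 0.10, adjusted p = 0.0447). Areg, amphiregulin, a ligand of the EGF receptor that immune cells also make, had 3.72, 10.7 and 8.07 CPM in R/R and 1.58, 2.26 and 3.22 CPM in WT lungs (1.66, SE 0.36, adjusted p = 0.0434). Both were without overlap, at low levels for Areg. Krt19, a keratin, had 147, 143 and 147 CPM in R/R and 103.8, 106 and 134 CPM in WT lungs, without overlap (0.35, adjusted p = 0.0794), and DESeq2 (0.0122) and the exact test (0.0159) called it but limma-voom (0.0751) did not. The 8 genes below 0 included Cldn4 (-0.21, adjusted p = 0.644) and Sfn (-0.24, adjusted p = 0.341). Krt8, another keratin, was listed with the pan-epithelial markers and not here. It was higher without overlap (0.34, adjusted p = 0.0892), and DESeq2 and the exact test called it but limma-voom did not.

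Of 16 genes of the unfolded protein response, which misfolded SP-C is known to trigger, 7 were above and 9 below 0 (median -0.04), and none passed (edgeR quasi-likelihood test, 7 at an unadjusted p under 0.05). Calr, a chaperone of the endoplasmic reticulum, had 374, 417 and 349 CPM in R/R and 482, 448 and 454 CPM in WT lungs (-0.28, adjusted p = 0.0840). Calr passed with DESeq2 (0.01) and the exact test (0.0201), with a range of 0.00189 to 0.285, and limma-voom called no gene of this list. Atf3, a stress-induced transcription factor, stood at 0.52 (adjusted p = 0.178), and Herpud1, a protein of endoplasmic reticulum degradation, at 0.25 (adjusted p = 0.183).

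Of 12 genes of surfactant clearance, 8 were above 0 (median 0.06), 1 rose and 1 fell. At an unadjusted p under 0.05 (edgeR quasi-likelihood test), 4 were higher and 1 lower. In 5 genes all R/R lungs were above all WT lungs, against 9.17% of all genes tested. Among these 5, Abcg1 stood at 0.30 (adjusted p = 0.0558) and Pparg at 0.42 (adjusted p = 0.154). Abcg1 passed with DESeq2 (adjusted p = 0.0118) and the exact test (0.0102), but not with limma-voom (0.0602). Pla2g15, the lysosomal phospholipase A2 of alveolar macrophages, had 56.9, 55.1 and 62.8 CPM in R/R and 40.6, 44.04 and 49.2 CPM in WT lungs (0.38, SE 0.08, adjusted p = 0.0431). Bach2, a transcription factor best known in lymphocytes, had 26.6, 24.4 and 29.7 CPM in R/R and 44.5, 46.1 and 42.2 CPM in WT lungs (-0.72, SE 0.08, adjusted p = 0.00248). Both were without overlap. Pla2g15 moved beside the higher macrophage markers and Bach2 beside the lower B cell genes given above, and the part of these cells was not tested. Csf2, which encodes the cytokine GM-CSF that alveolar macrophages need, was at -0.18 (adjusted p = 0.847), and its receptor genes Csf2ra and Csf2rb at -0.03 and -0.05 (adjusted p of 0.932 and 0.864).

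**Figure D5:**
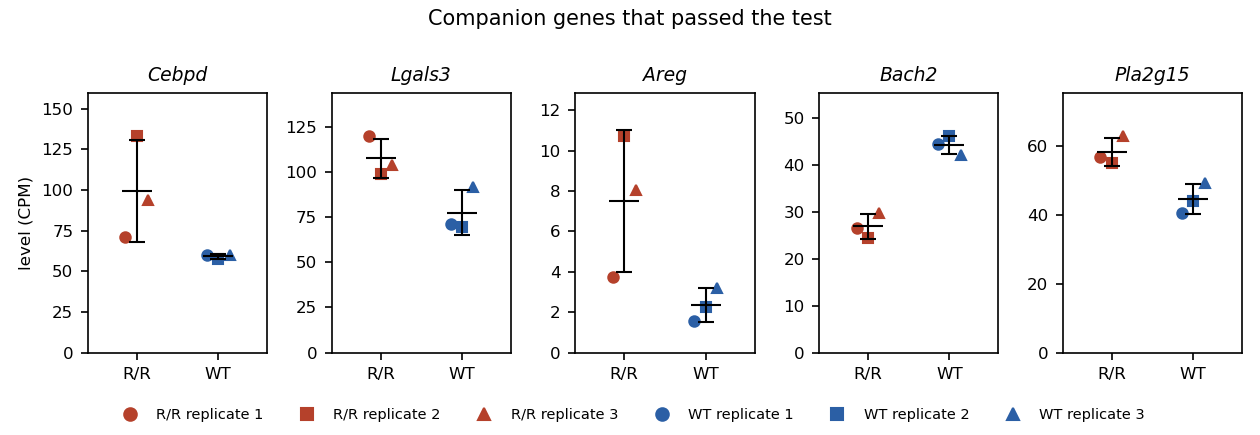
Level in CPM of the 5 genes of the wider surfactant lists that passed the test, in the 3 R/R lungs (red) and 3 WT lungs (blue), with black bars for the mean and SD (n = 3) and each axis starting at 0. Cebpd, Lgals3, Areg and Pla2g15 are higher and Bach2 is lower in all 3 R/R lungs, with the widest R/R spread for Cebpd and Areg.

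Among these 5 genes, Bach2 passed under all 14 alternatives (adjusted p of 1.07e-12 to 0.0178), and the other calls depended on the lungs used. With the omission of replicate 2 or 3 of R/R, or of replicate 1 or 2 of WT, none of Cebpd, Lgals3, Areg and Pla2g15 passed (adjusted p of 0.0966 to 0.183). Without R/R replicate 1, Lgals3 (adjusted p = 0.130) and Pla2g15 (0.0832) did not pass, and without WT replicate 3 all 4 did. Cebpd was not called by DESeq2 (adjusted p = 0.108), limma-voom (0.0751) or with a filter of 1 CPM in 3 libraries (0.0534), and Areg not by limma-voom (0.111). Over their alternatives, adjusted p ran from 7.46e-21 to 0.156 for Cebpd, 9.19e-09 to 0.183 for Lgals3, 4.5e-13 to 0.175 for Areg and 0.000144 to 0.164 for Pla2g15, with the lowest value of each when no filter on low counts was applied.

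The genes outside these lists whose pattern over the 6 lungs was most like the mean of the 10 were found by the root mean square difference of their centred log2 CPM. Of 1811 candidates (log2 CPM averaging 5 or more, and an SD over lungs of at least 0.8 times that of the members' mean), the nearest were Cavin3 (0.028), Atp5e (0.029), Naxd (0.029), Pgm1 (0.037) and Sec14l4 (0.038). The 10 genes themselves lay at 0.028 to 0.079 from their mean, a mean to which each contributes. Cavin3 had 42.4, 38.4 and 41.1 CPM in R/R lungs and 33.8, 36.3 and 40.5 CPM in WT lungs. None of the 5 passed the test between the genotypes (edgeR, adjusted p of 0.305 to 0.641).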

How the data were processed

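Lungs of 3 R/R and 3 WT mice were profiled by paired-end RNA-seq, with groups and replicate numbers as in the sample labels. Reads were mapped by the authors with HISAT2 2.1.0 on mm10 (GRCm38). The deposited values are raw counts, the number of read pairs on each gene's GENCODE M25 exons, from featureCounts 2.0.1 (the version in the file header). Strand and multi-mapping pairs were not used in the counting. The submitters' notes also name DESeq2. One deposited column was entered in the records as an estimated count because of a comment line in the file. Its values are whole numbers, and all 6 columns were used as raw counts without rounding. The sources name Trizol and RNeasy for extraction.

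Identifiers were given symbols from GENCODE M21 on the same assembly, where 55141 of 56262 identifiers matched. In edgeR 4.0.16 under R 4.3.3, low genes were removed with filterByExpr (at least 10 counts, 15 in total), counts were scaled by TMM, and genotypes were compared by glmQLFit and glmQLFTest. Calls were made at 0.05 after Benjamini-Hochberg adjustment over all genes tested. These genes held 99.8% to 99.9% of the pairs, and the common biological coefficient of variation was 8.62%. CPM use the TMM-scaled library size, TPM the file's exon length, and 95% intervals the quasi-likelihood degrees of freedom. Exact permutation tests used log2 CPM (prior count 0.5) in Python 3.11.15 with scipy 1.17.1. Levels relative to markers are log2 ratios of counts within a lung. The scripts were tested on simulated counts.

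The 10 genes and all lists were chosen with earlier results of these data known. From each of the 7 lists of the surfactant system, all called genes are named, or otherwise the 3 with the lowest p. The members are all named. Further genes of these lists and the single marker genes were picked after their values were seen. Pairs of lungs of one genotype differed by more than counting noise (chi-square per degree of freedom 5.65 to 9.09).

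Other tools were DESeq2 1.42.0, limma-voom (limma 3.58.1) and the exact test of edgeR. Other settings were plain library size, upper-quartile factors, no filter beyond 1 count, a filter of 1 CPM in 3 libraries, a replicate block, an adjusted p of 0.1, each lung left out, protein-coding nuclear genes as the denominator of shares, and type 1 markers as the reference.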

Additional observations from a re-analysis of the deposited data

How the results depend on the processing

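The number of the 10 genes called, 0 in the quasi-likelihood fit, was 1 with DESeq2 and 4 with no filter beyond 1 count (Sftpa1, Sftpb, Sftpc and Napsa, adjusted p of 0.00168 to 0.0275). Without that filter, 1109 of 31428 genes tested (3.53%) were called, against 300 of 17120 (1.75%) with it. The number of the 10 genes called was 0 with the other tools, scalings, filters and threshold, and 0 to 1 with 1 lung left out. Of the 108 genes in the surfactant lists, 5 were called, against 11 with DESeq2, 11 with the exact test, 3 with limma-voom, 18 with no filter and 1 to 13 with 1 lung left out. Without WT replicate 1, the log2 differences of Abca3 (-0.0016) and Lamp3 (-0.036) turned below 0, and over all lungs left out they ran from -0.0016 to 0.13 and from -0.036 to 0.13. Over all genes the calls ran from 65 (0.372%) to 621 (3.56%) with 1 lung left out. They were 531 (3.1%) with DESeq2, 630 (3.68%) with the exact test, 251 (1.47%) with limma-voom and 446 (2.61%) with the block. The fits without a lung have fewer samples, and the cause of the other changes was not tested.

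Deviations of same-numbered lungs from their genotype means correlated at -0.014, -0.0036 and -0.015 over genes. With 3 lungs per genotype, these values cannot settle whether the replicate numbers paired the lungs. With the replicate block, 0 of the 10 genes and 8 of the genes in the surfactant lists were called, and 446 of all genes against 300.

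The median difference relative to epithelial markers, -0.0084, was 0.14 with type 1 markers as the reference and -0.063 to 0.051 with 1 lung left out. The difference in share, 0.374 percentage points, was 0.386 with protein-coding nuclear genes as the denominator and 0.255 to 0.507 with 1 lung left out. At these depths 3 lungs per genotype and not counting error limited the precision for the 10 genes.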
